A study of Mus musculus with 4 samples.

Results

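Titin (Ttn, ENSMUSG00000051747) was the gene with the most deposited m6A peaks in mouse embryonic stem cells. Its peaks were every row that names Ttn in 4 peak lists, and there were 104 of them among 46417 peaks of all genes. N6-methyladenosine (m6A) is a methyl mark on adenosines of RNA, and it was mapped by precipitating fragmented total RNA with an antibody against m6A and sequencing it (MeRIP-seq). The lists came from 2 Mettl5-/- libraries (knockout 1 and 2) and 2 wild-type libraries (wild type 1 and 2) of C57BL/6N embryonic stem cells. Both genotypes were handled with the same antibody, and Mettl5 encodes the enzyme that sets an m6A in the RNA of the small ribosomal subunit. The labels also describe differentiation to embryoid bodies and neural cells, but name all 4 samples as embryonic stem cells. Separate cultures, or separate clones of the knockout, are not stated, so replicates may differ for technical reasons alone.

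Titin is the giant spring and ruler of the muscle sarcomere, running from the Z-disc to the M-line, and is known from heart and skeletal muscle. The exons nearest the gene's start encode its Z-disc and elastic I-band parts, and later exons encode the A-band part and, at the end, the M-line part with a kinase domain. In mRNA, m6A is placed by the METTL3 and METTL14 complex, a different enzyme from Mettl5, and lies mostly in long internal exons and around stop codons.

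Defining markers of the label were checked first. Of 10 stem cell markers, 7 had a peak in all 4 lists (Pou5f1, Sox2, Klf4, Esrrb, Fgf4, Tdgf1 and Utf1), and Nanog, Zfp42 and Dppa5a had none. Of all 21896 RefSeq protein-coding genes, 22.1% had a peak in all 4 lists and 37.6% in any list. Of 12 markers of heart and muscle, where Ttn is best known, the intermediate filament gene Des alone had a peak, and among the 11 without one were Myh6, Myh7, Tnnt2, Nkx2-5 and Myod1. A peak list shows methylated fragments and not RNA levels, so no level of Ttn or of these genes was measured. In bulk RNA, a mark in few cells and a weaker mark in all of them cannot be told apart. The lists held 12699 and 10821 peaks in knockout 1 and 2, and 11696 and 11201 peaks in wild type 1 and 2. The read depth is unknown, and a mark can go unlisted for want of reads.

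The number of Ttn peaks was 29 in knockout 1 and 19 in knockout 2, against 29 in wild type 1 and 27 in wild type 2. Knockout 2 stood below the other 3 libraries, and knockout 1 matched the highest wild-type library, so the genotypes overlapped. The mean was 24.0 ± 7.07 peaks in the knockout and 28.0 ± 1.41 peaks in wild type (SD, n = 2 each), a difference of -4 with an exact two-sided permutation p of 1. The smallest p that 2 against 2 libraries allow is 0.333, so no genotype difference could pass a threshold. Without knockout 2 the difference was 1, and without knockout 1 it was -9. As a share of its list, Ttn held 0.228% and 0.176% of the peaks in knockout 1 and 2, and 0.248% and 0.241% in wild type 1 and 2.

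Exon bases under the peaks came to 10257 in knockout 1 and 7277 in knockout 2, against 11847 in wild type 1 and 10225 in wild type 2. Knockout 1 lay between the wild-type libraries and knockout 2 below both. The means were 8767.0 ± 2107.2 bases in the knockout and 11036.0 ± 1146.9 bases in wild type (SD, n = 2 each; difference -2269.0, exact permutation p = 0.667). Without knockout 2 the difference was -779.0 bases, and without knockout 1 it was -3759.0.

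All Ttn peaks lay toward the end of the gene. On mm10, Ttn runs on the minus strand of chromosome 2 from position 76982557 to 76703980 (RefSeq, GRCm38.p6), a span of 278578 bases. The peaks began at position 76798206, which is 184.4 kb from the gene start, and ended at 76706780, which is 2800 bases short of the gene end. The first 66.2% of the span held no peak in any list. The peaks were spread over 32.8% of the span, or 91.4 kb, and the exon bases under a peak in any library made 15.9% of that stretch. Exon coordinates were not used here, so how much exon the empty part holds, and which part of the protein lies under a peak, cannot be given.

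**Figure D1:**
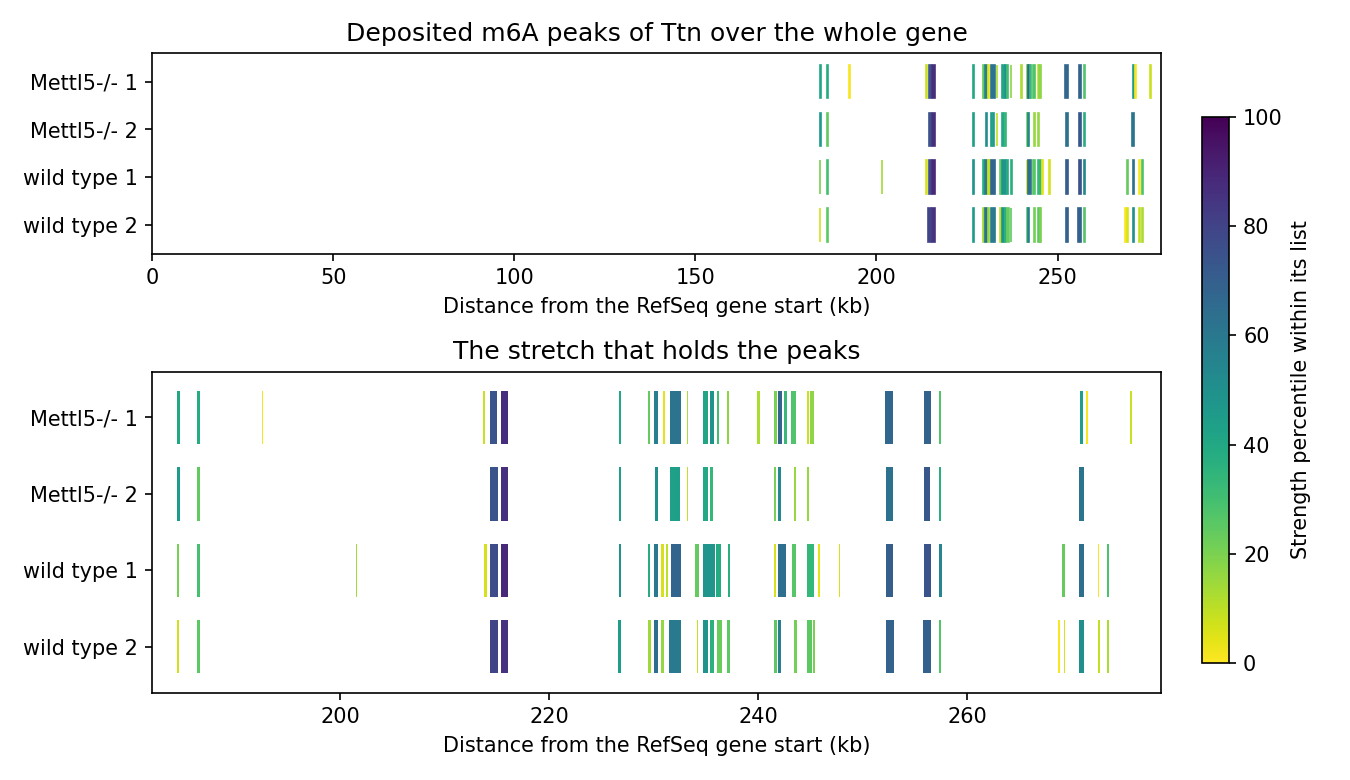
Each bar is one deposited Ttn peak in a library (rows), placed by its distance in kb from the RefSeq gene start and coloured by its strength percentile within its list; the upper panel shows the whole gene, with bars outlined so that they can be seen, and the lower panel the stretch with peaks, to scale. No list has a peak in the first 184.4 kb, and the darkest bars stand at the same place in all 4 rows.

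All 104 Ttn peaks were classed as coding sequence, and none as 3' untranslated region. Over all genes, 35.2% of the peaks were coding and 38.5% lay in a 3' untranslated region. This was not particular to Ttn among the large or many-peaked genes named below. All peaks of EPPK1 (34), Macf1 (29) and Dst (10) were coding too, and 97.7% of those of Ahnak. The share was lower in Zfhx3 (90.5%), Vcan (71.1%) and Plec (58.3%). No peak of another gene, on either strand, lay within the Ttn gene. The nearest 3 protein-coding genes on each side (Plekha3, Fkbp7 and Pjvk beyond its end, and Ccdc141, Sestd1 and Zfp385b beyond its start) had no peak in any list.

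Peaks of single exons dominated. A single block of exon made up 98 of the 104 peaks (94.2%), where 80.7% of all coding peaks had a single block. The 6 peaks that cross an intron fell at 2 places. One, at positions 76795971 to 76796300, was crossed in all 4 lists, with one block ending at 76796180 and the next beginning at 76796270. The block from 76796270 was short, at 31 bases in knockout 1, knockout 2 and wild type 2, and only 1 base in wild type 1. The other, at 76768502 to 76768928, was crossed in knockout 1 and in wild type 1, with one block ending at 76768684 and the next beginning at 76768781. The median width was 301 bases in knockout 1 and 2, and 301 and 271 bases in wild type 1 and 2. Every Ttn peak had a total width that is a multiple of 30 bases or one base more, which held for 60.1% of all peaks. The bounds of Ttn peaks therefore agree between lists only to such steps.

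The peaks of the 4 lists were joined where their exon blocks overlapped by at least 1 base, which gave 35 Ttn regions, numbered here from the gene start. Knockout 1 had a peak in 26 regions and knockout 2 in 17, against 29 in wild type 1 and 25 in wild type 2. Regions were unevenly spread. Between 230 and 250 kb from its start lay 16 of the 35 regions, and the next 10 kb held 3 more. The widest empty stretches between regions were 11981, 11127 and 10520 bases, against a median gap of 718 bases.

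A peak in every library was found in 16 of the 35 regions (45.7%). Over all genes that share was 42.5% of 15487 regions, and the Ttn share was close to it. Another 4 Ttn regions had a peak in 3 libraries, and knockout 2 was the missing one in all 4. Over all genes it was also the one most often missing, in 37.7% of 2194 regions of 3 libraries, against 21.2% for knockout 1, and 18.7% and 22.3% for wild type 1 and 2. A single library held 9 regions (25.7%, against 28.3% of all regions): 4 of knockout 1 and none of knockout 2, 4 of wild type 1 and 1 of wild type 2. Over all genes such regions numbered 1913 and 702 in knockout 1 and 2, and 1027 and 744 in wild type 1 and 2. By bases, 6226 of the 14553 exon bases under any Ttn peak (42.8%) were covered in all 4 libraries, and 3817 (26.2%) in one.

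By p-value, the strongest Ttn mark was region 7, a single block of coding exon at chr2:76766463-76767152. The authors' fold enrichment there was 311.0 in knockout 1 and 183.0 in knockout 2, against 388.0 in wild type 1 and 429.0 in wild type 2. No header says what this ratio was taken over, so it ranks peaks within a list and does not compare levels between lists. The negative log10 of the p-value was 133.0 and 181.0 in knockout 1 and 2, and 184.0 and 181.0 in wild type 1 and 2. As a strength percentile, the rank of the p-value within its own list with 100 as the strongest, region 7 stood at 86.9 and 86.2 in knockout 1 and 2, and at 88.7 and 85.5 in wild type 1 and 2. Region 7 was the strongest Ttn region by p-value in all 4 libraries. By fold, region 27 stood above region 7 in knockout 2, at 192.0. Its lower coordinate, the bound toward the gene end, was the same in the 4 lists, its upper coordinate in 3 of them, and 95.7% of its bases were covered in every library.

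Next to it lay region 6, at chr2:76767422-76768232, which by p-value ranked after region 7 among the shared regions in every library. By fold, regions 27 (192.0), 31 (88.9) and 26 (80.7) stood above region 6 in knockout 2. The percentile of region 6 was 74.0 and 74.4 in knockout 1 and 2, against 77.3 and 79.3 in wild type 1 and 2. Its folds were 131.0 and 73.2 in knockout 1 and 2, and 207.0 and 329.0 in wild type 1 and 2. Both knockout percentiles were below both wild-type ones, but ranks in lists of different lengths cannot show whether the mark changed. Regions 6 and 7 are separate peaks in each list, and their nearest neighbour toward the gene end was 10520 bases away.

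The other 3 of the 5 strongest shared regions lay further toward the gene end. Region 27, at chr2:76726021-76726771, had percentiles of 68.5 and 73.0 in knockout 1 and 2, and 74.5 and 69.9 in wild type 1 and 2. Its genotypes overlapped, and by p-value it ranked 3 of the 16 shared regions in every library. Its folds were 86.5 and 192.0 in knockout 1 and 2, and 166.0 and 155.0 in wild type 1 and 2. Region 26, at chr2:76729577-76730357, had percentiles of 67.3 and 62.5 in knockout 1 and 2, and 70.6 and 68.8 in wild type 1 and 2, again with no overlap. Region 21, at chr2:76739747-76740647, had percentiles of 68.1 and 53.1 in knockout 1 and 2, and 64.4 and 56.8 in wild type 1 and 2. In knockout 1 it was listed as a pair of peaks, the weaker at a percentile of 32.6. For region 21 the ranges of the genotypes overlapped.

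**Figure D2:**
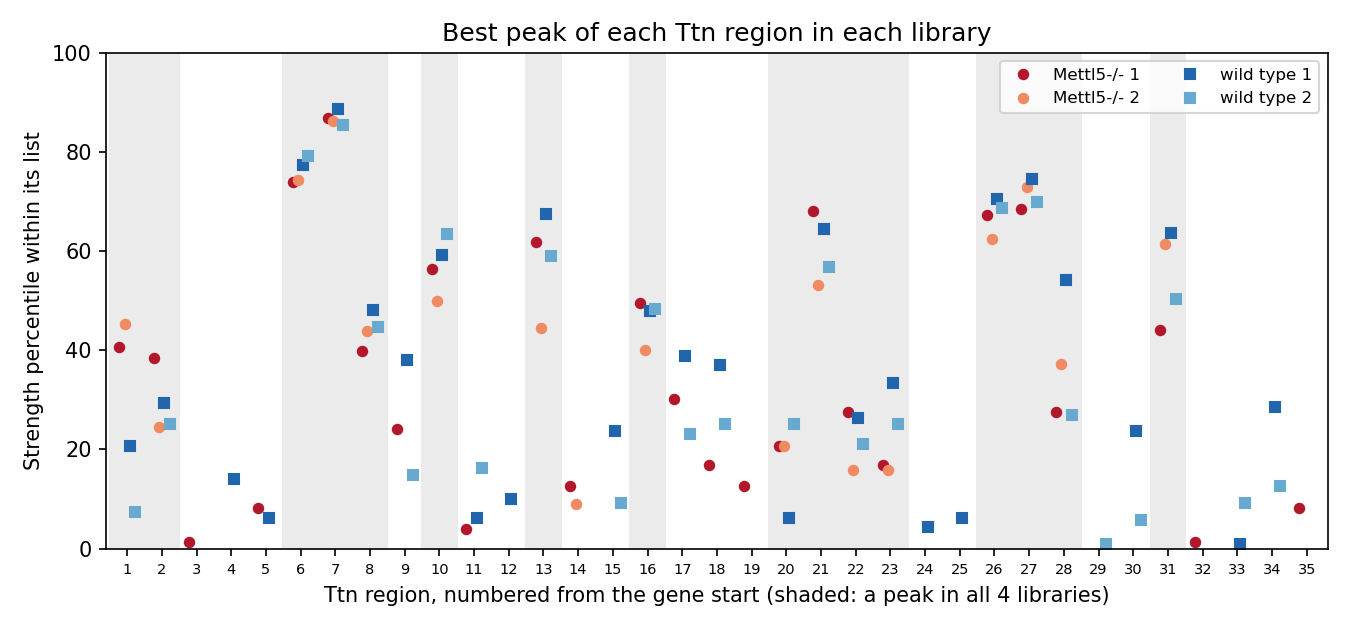
Points give the strength percentile (0 to 100, within its list) of the best peak of each of the 35 Ttn regions, numbered from the gene start, in the knockout libraries (circles) and the wild-type libraries (squares); shaded columns mark the 16 regions with a peak in all 4. Region 7 lies between 85.5 and 88.7 in every library, and regions outside the shading lie below 40.

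The order of the 16 shared regions was close to the same in each library. Spearman's rho of their p-value ranks ranged from 0.853 to 0.953 over the 6 pairs of libraries (n = 16 regions of one transcript, which share its sequence and its RNA level). The knockout pair had 0.923, the wild-type pair 0.953, and the 4 pairs across genotypes 0.853 to 0.889. The region nearest the gene start departed most from this order, a choice made after its values were seen. Region 1, at chr2:76797876-76798206, ranked 10 and 8 of 16 in knockout 1 and 2, against 15 and 16 in wild type 1 and 2. Its peak was 301 and 331 bases wide in knockout 1 and 2, against 181 and 151 bases in wild type 1 and 2. The genotypes did not overlap in rank or in width. It is one region picked from 16 for its values, so no test was made of it.

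How the signal was cut into peaks differed between lists. Region 16, at chr2:76746646-76747845, was a pair of peaks in knockout 1, in knockout 2 and in wild type 2, and one peak of 1200 bases in wild type 1, the widest Ttn peak. Region 13, at chr2:76749915-76751055, was a pair of peaks of 481 bases each in knockout 2, against one peak of 1081 bases in knockout 1, 961 in wild type 1 and 1141 in wild type 2. The shortest Ttn peaks had 121 bases, with one in knockout 1 (region 3) and 2 in wild type 1 (regions 25 and 33), all at percentiles of 6.25 or less.

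Of the 35 regions, 5 (14.3%) followed the genotype, meaning a peak in both libraries of one and in neither of the other. Over all regions 4.53% did so: 2.51% as knockout-only and 2.02% as wild-type-only. The Ttn regions were 1 knockout-only and 4 wild-type-only. Only 1 further region was shared by a single library of each genotype (region 5, in knockout 1 and wild type 1). Over all regions, 563 were shared by that pair alone. The other crossed pairs held 274 (knockout 2 and wild type 2), 486 (knockout 1 and wild type 2) and 294 (knockout 2 and wild type 1). Regions following the genotype made 30.2% of all 2318 regions of 2 libraries, and 83.3% of the 6 of Ttn. Regions of one gene are not independent, and no test was made. Leaving out a library judges its genotype from one list, so the count can then only stay or rise. Without knockout 1, 1 region was knockout-only and 8 wild-type-only (29.0% of the Ttn regions, against 16.5% of all regions). Without knockout 2 there were 5 and 4 (25.7%, against 20.8%), without wild type 1 there were 1 and 5 (18.2%, against 13.5%), and without wild type 2 there were 1 and 8 (26.5%, against 14.5%).

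All 5 were weak. The knockout-only region 14, at chr2:76749225-76749405, had folds of 9.61 and 9.71 and percentiles of 12.6 and 9.03 in knockout 1 and 2, and the same bounds in both. The wild-type-only region 15, at chr2:76748175-76748565, had folds of 12.3 and 9.62 and percentiles of 23.7 and 9.25 in wild type 1 and 2. The remaining 3 wild-type-only regions lay near the gene end, around region 31, which had a peak in all 4 libraries. Region 30, at chr2:76713154-76713484, had percentiles of 23.7 and 5.80 in wild type 1 and 2. Region 33, at chr2:76709825-76710035, had 0.885 and 9.25, and region 34, at chr2:76708955-76709135, had 28.5 and 12.6. In the same stretch knockout 1 had weak peaks of its own at chr2:76710995-76711145 and chr2:76706780-76706960, with percentiles of 1.28 and 8.11. In region 31 itself, at chr2:76711325-76711865, the percentiles were 44.2 and 61.5 in knockout 1 and 2, and 63.7 and 50.3 in wild type 1 and 2, with overlapping genotypes.

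Regions found in fewer libraries held weaker peaks. The median percentile of Ttn peaks was 45.4 in regions of all 4 libraries (71 peaks), 23.7 in regions of 3 (12 peaks), 9.25 in regions of 2 (12 peaks) and 6.25 in regions of one (9 peaks). Over all genes the medians were 61.5, 32.9, 24.2 and 16 in the same order, so the Ttn median was the lower one at each step. Outside the regions of all 4 libraries, no Ttn peak exceeded a percentile of 38.9 or a fold of 19.5.

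**Figure D3:**
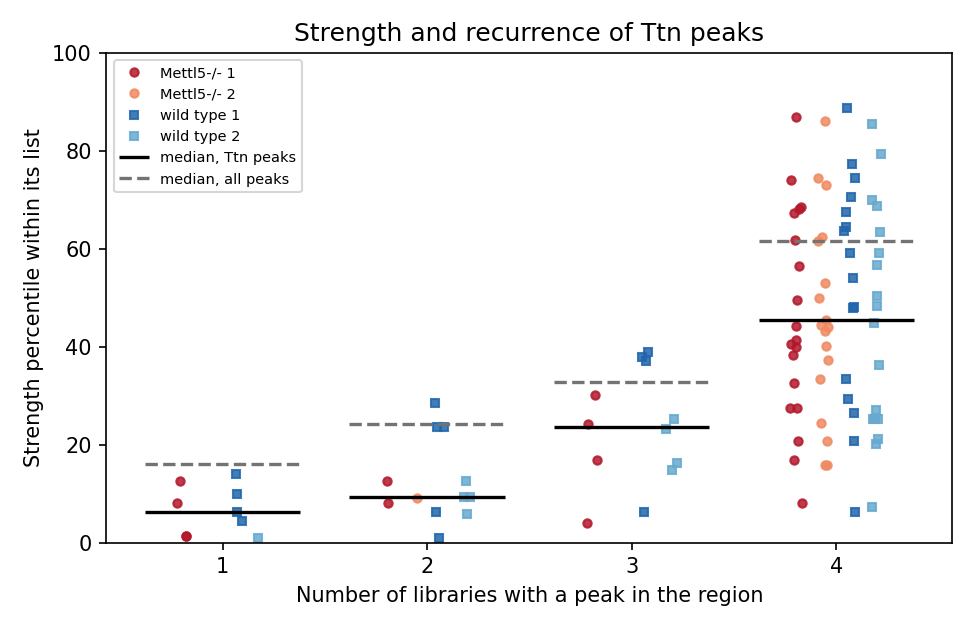
Each point is a Ttn peak, set by the number of libraries with a peak in its region (x) and its strength percentile within its list (y), with knockout libraries as circles and wild-type libraries as squares. Solid lines mark the Ttn medians (6.25, 9.25, 23.7 and 45.4 from 1 to 4 libraries) and dashed lines the medians of all peaks, which lie above them.

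The low count of knockout 2 lay mostly in weak peaks. With a p-value under 0.001 there were 17 Ttn peaks in knockout 1 and 16 in knockout 2, against 20 in wild type 1 and 19 in wild type 2. At 0.001 or more there were 12 and 3 in knockout 1 and 2, against 9 and 8 in wild type 1 and 2. Such peaks made 41.4% and 15.8% of the Ttn peaks in knockout 1 and 2, and 31.0% and 29.6% in wild type 1 and 2. In the whole lists their share was 25.8% and 19.5% in knockout 1 and 2, and 22.2% and 19.8% in wild type 1 and 2. The Ttn share was thus above that of its list in 3 libraries and below it in knockout 2, whose list share was close to that of wild type 2. The weakest Ttn peak of knockout 2 had a p-value of 0.0047, while the weakest of the other libraries had 0.025 in knockout 1, and 0.023 and 0.021 in wild type 1 and 2. For Ttn, knockout 2 had 19 peaks where the lowest other library had 27. A ratio that low or lower in knockout 2 was found in 12.2% of the 821 genes with at least 10 peaks. It was found for knockout 1 in 7.55% of them, and for wild type 1 and 2 in 6.82% and 7.43%. In genes with few peaks per list, such a ratio can rest on a single peak. Of the 100 genes behind the 12.2%, 31 had 3 and 2 peaks in knockout 1 and 2, and 3 in each wild-type library. These shares therefore do not show how often a shortfall of as many peaks as in Ttn occurred. The part of read depth in the Ttn count was not tested.

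The median percentile of Ttn peaks was 30.2 in knockout 1 and 44.0 in knockout 2, against 33.5 in wild type 1 and 25.2 in wild type 2. The genotypes overlapped, with means of 37.1 ± 9.75 in the knockout and 29.3 ± 5.83 in wild type (SD, n = 2 each; difference 7.75, exact permutation p = 0.667). These are ranks in lists of different lengths and cannot show whether methylation changed. Without knockout 2 the difference was 0.848, and without knockout 1 it was 14.6.

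Weak Ttn peaks repeated the same values. In wild type 1, 4 peaks had a fold of 8.68 with a p-value of 0.0089, and in wild type 2, 4 had a fold of 14.1 with a p-value of 0.00025. Such repeats took in 11 of 29 Ttn peaks in knockout 1 and 2 of 19 in knockout 2, against 6 of 29 in wild type 1 and 6 of 27 in wild type 2. A pair of knockout 1 peaks with the same p-value of 0.025 and fold of 7.21 carried different adjusted p-values in the authors' list, 0.0447 in region 3 and 0.262 in region 32. The peak in region 32 was the only one of Ttn with an adjusted p-value of 0.05 or more.

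Many peaks did not make Ttn the most strongly marked transcript. No Ttn peak reached the strongest 10% of its list by p-value in any library. A best peak stronger than that of Ttn was found in 1497 of 8338 genes in knockout 1 and 1358 of 7281 in knockout 2, against 1218 of 7771 in wild type 1 and 1474 of 7509 in wild type 2. Other genes with many peaks over the 4 lists were Ahnak (44), Zfhx3 (42), Vcan (38), the gene of the matrix proteoglycan versican, and EPPK1 (34), an epiplakin symbol as the files write it. In these 4 genes but Vcan the best peak by p-value was stronger than that of Ttn in every library. The percentiles were 95.8 to 99.1 for Ahnak against 85.5 to 88.7 for Ttn. Zfhx3, a transcription factor gene, came nearest, at 88.1 to 91.9. Vcan stood at 57.0 to 73.1. The highest fold did not always give the same order. In knockout 2 it was 175.0 for Ahnak against 192.0 for Ttn. In wild type 2 it was 203.0 for Zfhx3 and 361.0 for EPPK1, against 429.0 for Ttn. The other highest folds of Ahnak, Zfhx3 and EPPK1 were above those of Ttn.

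By exon bases under peaks Ttn ranked 4 of 9949 genes, with a mean of 9901.5 bases per library. Ahnak had 13497.5 bases, Plec, the gene of the cytolinker plectin, 10933.2, and Spen, a transcriptional corepressor gene, 10059.8. Plec reached this with 12 peaks and Spen with 14, where Ttn had 104. A Ttn peak covered 380.8 bases on average and a peak of any gene 502.0. The share of regions present in all 4 libraries was 80% for Ahnak (8 of 10), 63.6% for Zfhx3 (7 of 11) and 50% for Vcan (5 of 10), against 45.7% for Ttn.

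**Figure D4:**
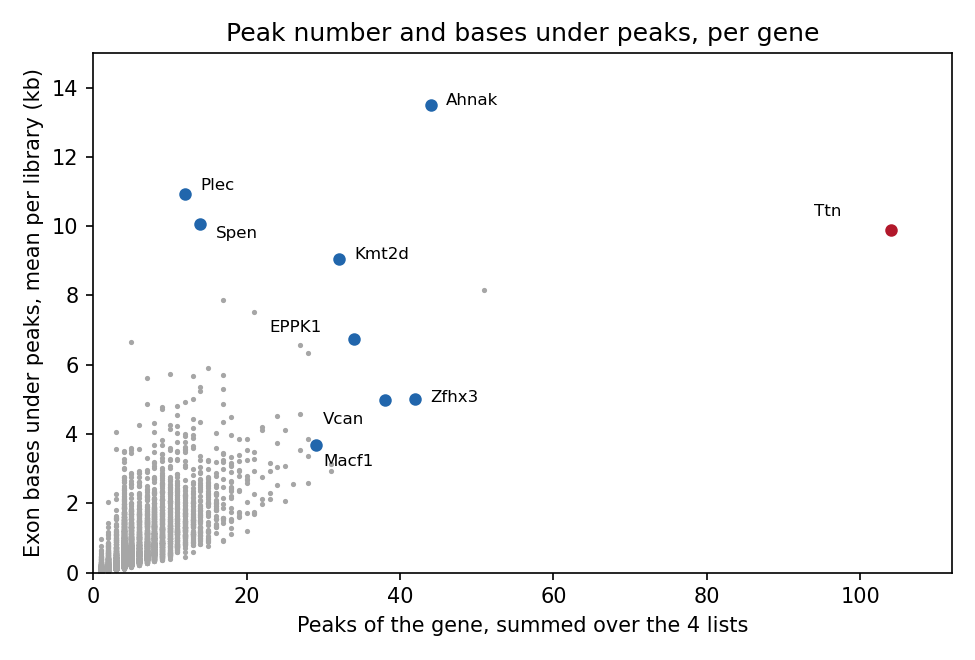
Each point is a gene, with its peaks summed over the 4 lists on the x axis and its exon bases under peaks (mean per library, in kb) on the y axis; Ttn is red and named genes are blue. Ttn lies far to the right at 104 peaks, while Ahnak, Plec and Spen lie above it in bases.

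Of 26 giant genes chosen for comparison, 21 had a peak in any list and 17 in all 4, beside the 37.6% and 22.1% of all protein-coding genes. Neb, the gene of nebulin, another giant sarcomere protein, had none. Dst, the dystonin gene, had 10 peaks, Syne1, a nesprin gene, 13, and Macf1, a cytolinker gene, 29. One giant gene, the ubiquitin ligase gene Huwe1, had peaks in both knockout libraries and neither wild-type library, its best at folds of 3.16 and 2.94 in knockout 1 and 2, and no giant gene had them in wild type alone. Of all RefSeq protein-coding genes, 0.786% were knockout-only and 0.626% wild-type-only in this way.

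Among 51 genes of the sarcomere and of muscle, 8 had a peak in any list (15.7%) and 4 in all 4, namely Obsl1, Des, Flnc and Rbm20. None followed the genotype. Rbm20, which encodes the factor that controls the splicing of the titin transcript, had its best peak at percentiles of 76.6 and 70.7 in knockout 1 and 2, and 75.3 and 71.9 in wild type 1 and 2. Flnc, which encodes the actin cross-linker filamin C of the Z-disc, had its best peak at 93.5 and 92.4 in knockout 1 and 2, and 91.9 and 92.3 in wild type 1 and 2. Obsl1, a gene of the sarcomere list, had 7 peaks. Among the 43 with none were Myh6, Myh7, Mybpc3, Actn2 and Tcap, whose protein binds the Z-disc end of titin.

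Genes most like Ttn in how their peaks were shared out over the lists were sought among 820 genes with at least 10 peaks, by the summed absolute difference of the 4 shares. At the smallest distance, 0.0262, 31 genes with 11 peaks each were tied, all with 3 and 2 peaks in knockout 1 and 2, and 3 and 3 in wild type 1 and 2. The first of them by name were 1700030C10Rik, Actb, Agbl5, Apol8 and Bahd1, and the measure gives no order among the 31.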

How the data were processed

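Total RNA was, per the labels' protocols, broken into fragments, precipitated with an antibody against m6A and made into libraries. HISAT2, HOMER and mm10 stand in the submitters' processing notes with no role given, and the peak caller is not given in the sources used here. The authors deposited one peak list per library, not pooled. Per the file headers, each peak has a p-value, the log10 of that p-value and of an adjusted one (treated as a score), a fold ratio, exon blocks, a gene and a class. Starts were read as counted from 0, because peak ends coincide with RefSeq gene ends on that reading, and are given counted from 1.

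Peaks off the reference chromosomes (6 and 3 in knockout 1 and 2, and 3 and 5 in wild type 1 and 2) were left out. Over all genes, peaks sharing at least 1 exon base on either strand were merged to regions. Joining was tested on simulated lists in which whole peaks were shifted slightly between libraries. Peaks split or changed in width were not simulated, so the test does not show how well those are joined. In the shared Ttn regions the lower coordinate had a median spread of 90 bases between lists. Strength was the percentile of the log10 p-value within its list. Genotype means were compared by the exact two-sided permutation test over the libraries. The gene, the gene lists and the rules for named genes and regions were chosen with earlier results of these data known. Some genes that these rules select are not reported here. Gene spans and neighbours came from a RefSeq table of GRCm38.p6, the assembly of mm10. Python 3.11.15, numpy 2.4.6, pandas 2.3.3 and matplotlib 3.10.9 were used. Alternatives were other overlap rules, stricter peak sets, lists of equal length, strength by fold and leaving out each library. Depth is unknown, so no counting interval is given.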

Additional observations from a re-analysis of the deposited data

How the results depend on the processing

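Leaving out each library gave differences, knockout minus wild type, of -9 to 1 Ttn peaks, -3759.0 to -779.0 exon bases and 0.848 to 14.6 percentile points, with 16 to 20 regions in all libraries kept and 6 to 9 regions following the genotype, a count that can only stay or rise when a library is left out. The stronger 50% of each list gave a median percentile difference of -1.56. It left 9 Ttn regions, of which 6 had a peak in all 4 libraries, against 16 of 35 with the full lists. Of these 9, 0 followed the genotype, since all 5 such regions lay in the weaker part of the lists. Regions following the genotype numbered 3 of 27 with lists of equal length and 3 of 22 with a p-value under 0.001. The shares over all genes were not computed for these settings. The p-value threshold of 0.001 and regions in place of peaks were chosen after seeing the data. The other alternatives moved no difference by more than the spread between libraries and no count by over 1.5 times. The alternatives gave differences and counts only. No p-value was computed for them, and with so few libraries none could pass a threshold. No paired analysis was possible because only the knockout labels are numbered, so libraries cannot be matched across genotypes. Without read depth, weak peaks that are missing from a list cannot be told from peaks that were not sampled.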
